A study of Homo sapiens with 12 samples.

Results

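CDCA7 was lowered with a short hairpin RNA in KYSE150, an established line of human oesophageal squamous cell carcinoma, and the RNA of these cells was compared with that of native KYSE150 cells. The comparison uses 6 of the study's 12 libraries, 3 of native controls and 3 with the hairpin (shCDCA7). The genes described are those with a mean of at least 1 FPKM (fragments per kilobase of gene, here scaled by a size factor per library rather than by its total reads) over the 6 libraries, which holds for 11793 of 58735 genes in the table. Of these, 11463 had enough reads to be tested. The other 330 are mostly very short, with a median gene length of 123 bases against 4673 bases for those tested, and they take part in no count below.

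The study's title asks about epithelial-mesenchymal transition driven by TGF-β, and about the pathway genes SMAD4 and SMAD7, in this cancer. The remaining 6 libraries come from KYSE180 cells and are not described here. The controls carry the label WT and are called native, and no library with a control hairpin is named, so the effect of carrying a hairpin and the effect of less CDCA7 cannot be told apart. Both groups were grown in the same medium with serum, and the labels name no added TGF-β. They do not give the hairpin's sequence, whether the hairpin cells are 1 clone, or whether replicates are separate cultures, so p-values measure only the spread between these libraries, which may be technical.

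CDCA7 is a zinc finger protein that recruits the chromatin remodeller HELLS to nucleosomes. Loss of either protein, or of the DNA methyltransferase DNMT3B or the factor ZBTB24, causes the human syndrome of immunodeficiency, centromeric instability and facial anomalies, in which satellite DNA loses methylation. UHRF1 reads newly copied, hemimethylated DNA and brings in DNMT1, which restores the mark. CDCA7 is itself a target of E2F and MYC, and is high in dividing cells.

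The hairpin libraries are not alike. Reads per library ran from 16.4 M to 19.6 M. Across the genes tested, log2 levels correlated at 0.994 between shCDCA7 replicates 1 and 3, and at 0.929 and 0.933 between them and shCDCA7 replicate 2. Mitochondrial genes took 11.2% of the reads of shCDCA7 replicate 2, 5.20% and 5.73% in the other 2 hairpin libraries and 4.03% to 4.15% in the controls, and a read was found for 19130 genes in it against 21368 to 22875 in the others. Results are therefore given from all 6 libraries and again without shCDCA7 replicate 2. Genes of the squamous lineage were found in all 6 libraries: of 36 squamous and basal genes listed, 30 had a mean of at least 1 FPKM, among them the lineage factor TP63 and the keratin KRT17, which stood at 47.5, 54.0 and 52.1 FPKM in native cells and 138, 95.0 and 134 FPKM with shCDCA7. The 30 also hold genes not particular to squamous cells, such as the keratins KRT8 (337 to 442 FPKM) and KRT18 (345 to 495 FPKM). In each library these 2 were above the basal keratin KRT5 (206 to 339 FPKM). SOX2, another factor of the lineage, did not exceed 0.205 FPKM, and KRT6B, KRT7, KRT19, FOXE1 and ZNF750 also had a mean under 1 FPKM. Most markers of other cell types were near 0. No listed leukocyte or endothelial gene and 1 of 13 columnar epithelial genes reached a mean of 1 FPKM, and of 13 fibroblast genes MMP2 and FBLN1 did, at 6.83 to 9.07 and 4.15 to 7.14 FPKM over the 6 libraries. COL1A1 ran from 0.647 to 1.38 FPKM, while DCN, PDGFRA, COL1A2 and COL3A1 stayed below 0.05 FPKM in each library.

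The targeted gene was low in each hairpin library. CDCA7 (chromosome 2, 173354820 to 173368997 of GRCh38) was found at 27.4, 25.6 and 25.6 FPKM in native cells and 9.24, 10.1 and 8.83 FPKM with shCDCA7. The groups did not overlap, and shCDCA7 replicate 2 lay with the other hairpin libraries. CDCA7 fell by 1.39 in log2(FPKM + 1) (SE 0.09, adjusted p = 0.00166, limma-trend on log2(FPKM + 1) with Benjamini-Hochberg adjustment), and the change was -1.44, adjusted p = 8.95e-06, without shCDCA7 replicate 2. In later results, a value in parentheses directly after a log2 change or a median is its value without that library. Because 1 is added before the logarithm, log2 changes understate the change of genes near 1 FPKM. A gene is called here when its adjusted p is under 0.05.

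**Figure D1:**
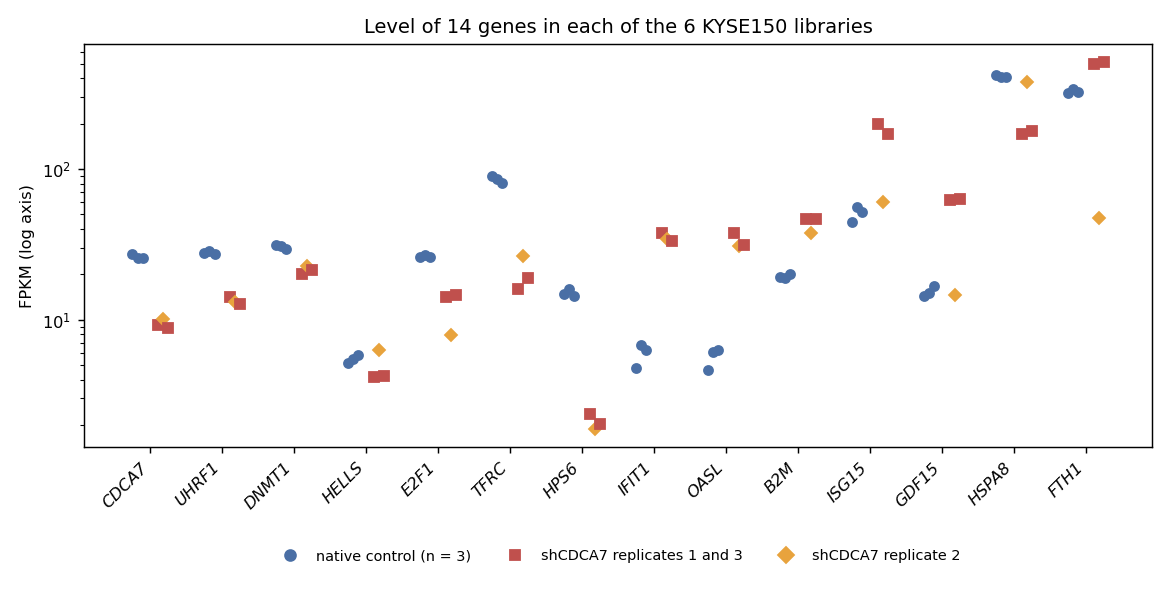
FPKM of 14 genes on a log axis, 1 point per library: circles are native controls, squares shCDCA7 replicates 1 and 3, diamonds shCDCA7 replicate 2. For CDCA7, UHRF1, IFIT1 and OASL the 3 hairpin libraries lie together and apart from the controls, whereas for GDF15 and HSPA8 shCDCA7 replicate 2 lies within or near the range of the controls and for FTH1 below them.

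The results below return to interferon-stimulated genes, of which more were higher, and to genes of DNA replication, of which more were lower. Their promoters are known for an element each, and 5 windows are shown so that these can be seen. The 5 were picked from named genes that hold the element searched, and other genes of both groups do not hold it. Each window runs from 250 bases before the RefSeq start to 50 after it, 300 bases on GRCh38.p14, and is written 5′ to 3′ on the gene's strand. In the first 3, capitals mark GAAANNGAA on either strand, the core that interferon-stimulated response elements share; the matches begin 17 bases before the start in IFI44, 115 and 102 before it in IFIT1, and 155 and 121 before it in IFIT3. In E2F1 and UHRF1, capitals mark an E2F site, searched as TTTCCCGC, TTTGGCGC, TTTCGCGC or TTTGCCGC on either strand, beginning 33 and 20 bases before the start of E2F1 and 14 before that of UHRF1.
IFI44 chr1:78649539-78649838 (plus strand): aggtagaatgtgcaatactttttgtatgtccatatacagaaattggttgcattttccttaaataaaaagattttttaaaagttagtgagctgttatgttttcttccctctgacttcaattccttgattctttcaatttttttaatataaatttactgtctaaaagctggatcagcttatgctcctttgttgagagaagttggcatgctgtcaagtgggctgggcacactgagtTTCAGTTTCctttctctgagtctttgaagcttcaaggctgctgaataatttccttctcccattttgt
IFIT1 chr10:89392373-89392672 (plus strand): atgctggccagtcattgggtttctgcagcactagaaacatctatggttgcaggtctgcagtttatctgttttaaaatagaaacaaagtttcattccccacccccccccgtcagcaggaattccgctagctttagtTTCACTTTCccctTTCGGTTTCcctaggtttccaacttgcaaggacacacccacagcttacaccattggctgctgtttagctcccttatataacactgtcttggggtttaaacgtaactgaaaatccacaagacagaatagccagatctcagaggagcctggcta
IFIT3 chr10:89327747-89328046 (plus strand): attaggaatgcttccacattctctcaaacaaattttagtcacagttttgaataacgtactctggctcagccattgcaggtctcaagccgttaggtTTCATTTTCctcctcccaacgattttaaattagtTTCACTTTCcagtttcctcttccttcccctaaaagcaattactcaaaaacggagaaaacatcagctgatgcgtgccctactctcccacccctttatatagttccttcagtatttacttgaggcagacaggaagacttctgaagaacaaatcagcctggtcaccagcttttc
E2F1 chr20:33686336-33686635 (minus strand): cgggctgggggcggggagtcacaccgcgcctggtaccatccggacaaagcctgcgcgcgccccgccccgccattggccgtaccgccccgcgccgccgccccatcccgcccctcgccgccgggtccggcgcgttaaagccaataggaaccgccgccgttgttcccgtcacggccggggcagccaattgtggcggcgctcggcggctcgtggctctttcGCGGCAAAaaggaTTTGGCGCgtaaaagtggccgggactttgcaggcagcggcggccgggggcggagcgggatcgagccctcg
UHRF1 chr19:4909251-4909550 (plus strand): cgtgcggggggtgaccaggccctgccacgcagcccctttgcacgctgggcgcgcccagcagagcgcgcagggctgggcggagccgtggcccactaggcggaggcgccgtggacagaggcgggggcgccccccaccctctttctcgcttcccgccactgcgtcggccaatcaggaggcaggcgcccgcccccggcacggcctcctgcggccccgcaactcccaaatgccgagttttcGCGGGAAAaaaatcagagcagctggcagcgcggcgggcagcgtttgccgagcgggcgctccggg

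The first question is how much of the transcriptome differed between hairpin and native cells. Among 11463 genes with a test, 1333 passed as higher (11.6%) and 1042 as lower (9.09%), with log2 changes of at least 1 in 173 and 163 of these. An unadjusted p under 0.05 was found for 4350 genes. Without shCDCA7 replicate 2, 3932 were called higher (34.3%) and 3099 lower (27.0%), of which 246 and 165 had a log2 change of at least 1. All 2375 genes called from 6 libraries were called in the same direction without it. The median over all genes tested was 0.04 in both fits. Leaving out another library gave fewer calls: 250, 244 and 347 higher with 225, 206 and 288 lower without control replicates 1, 2 and 3, and 841 and 709 higher with 667 and 567 lower without shCDCA7 replicates 1 and 3. Of all calls 56.1% were higher. Scaled to library totals the share was 22.7% (701 higher, 2381 lower), with a median of -0.18, and to totals without mitochondrial genes 27.4% (781 and 2071), so the split between higher and lower rests on the scaling. No called gene was called in the opposite direction under any scaling tried. For the gene lists below, the shares over all genes, 11.6% higher and 9.09% lower, are the background. Without shCDCA7 replicate 2 they are 34.3% and 27.0%. Below, counts for a gene list without another library are the range over leaving out each of the 5 libraries other than shCDCA7 replicate 2 in turn, and a call lost without any 1 other library was lost in each of these 5 fits.

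Of the 12 largest rises among genes with a mean of at least 5 FPKM over the 6 libraries, 5 are antiviral genes that interferon induces. That mean covers both groups, so a gene low in native cells, such as IFI44, CCL5 or CALM2P2, passed only through its hairpin values. IFI44 stood at 1.03, 0.959 and 1.08 FPKM in native cells and 9.90, 13.6 and 9.18 FPKM with shCDCA7, a log2 change of 2.54 (2.38) with SE 0.16 and adjusted p = 0.00166. IFIT1, which binds foreign RNA ends, went from 4.78, 6.74 and 6.29 FPKM to 37.5, 34.4 and 33.1 FPKM, a log2 change of 2.39 (2.40) with SE 0.13 and adjusted p = 0.00166. OASL, an inactive relative of the oligoadenylate synthetases that enhances RNA sensing, went from 4.64, 6.08 and 6.31 FPKM to 37.7, 31.0 and 31.4 FPKM, a log2 change of 2.37 (2.42) with SE 0.14 and adjusted p = 0.00166. In these 3 genes shCDCA7 replicate 2 lay with the other hairpin libraries. IFIT3 went from 3.74, 5.09 and 4.30 FPKM to 20.4, 38.4 and 17.5 FPKM, highest in shCDCA7 replicate 2, and IFIT2 from 4.74, 6.54 and 6.90 FPKM to 26.6, 27.9 and 23.0 FPKM. Their log2 changes were 2.23 (1.90) and 1.94 (1.88). CCL5, a chemokine that draws T cells, had the largest change of the 12: it stood at 0.340, 1.05 and 0.893 FPKM in native cells and 15.4, 6.43 and 12.5 FPKM with shCDCA7, a log2 change of 2.77 (3.10) with SE 0.32 and adjusted p = 0.00478.

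The other rises belong to no single family. ENC1, an actin-binding protein and adaptor of a ubiquitin ligase, went from 5.67, 5.71 and 6.51 FPKM to 25.2, 26.7 and 26.9 FPKM, a log2 change of 1.97 (1.96) with SE 0.09 and adjusted p = 0.00166, and was the most even of the 12 across hairpin libraries. HIST2H2BE, a histone gene whose RNA can be polyadenylated, went from 2.92, 2.25 and 2.10 FPKM to 17.3, 11.5 and 23.5 FPKM. NECTIN4, an adhesion molecule of epithelial cells, went from 2.72, 3.06 and 2.44 FPKM to 17.4, 7.35 and 17.8 FPKM, and PIM1, a survival kinase, from 25.6, 23.4 and 25.3 FPKM to 119, 56.8 and 126 FPKM; in both, shCDCA7 replicate 2 was the lowest hairpin library but still above the controls. MT-RNR2, the large mitochondrial ribosomal RNA, went from 3299, 3081 and 3335 FPKM to 10004, 28326 and 10965 FPKM, and here shCDCA7 replicate 2 was by far the highest, as it was in mitochondrial reads. CALM2P2 is a processed pseudogene of the calmodulin gene CALM2, and its reads (1.27, 0.468 and 1.93 FPKM to 6.18, 12.6 and 8.66 FPKM) may be shared with that gene. The log2 changes were 2.38 (2.64) for HIST2H2BE, 1.93 (2.32) for NECTIN4, 1.90 (2.26) for PIM1, 2.17 (1.69) for MT-RNR2 and 2.20 (1.96) for CALM2P2. Selection of the 24 genes named for size of change required a call without shCDCA7 replicate 2. Of these 24, 18 were called without each of the 6 libraries in turn. The other 6 lost the call without a control: MT-RNR2 without any 1 control, NECTIN4 without any 1 control, PIM1 without control replicate 1 or 2, TMEM250 without any 1 control, TMEM102 without any 1 control and HDHD3 without control replicate 2, with adjusted p up to 0.0867.

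The 12 largest falls were led by HPS6, a subunit of the BLOC-2 complex that builds lysosome-related organelles. It stood at 14.8, 15.9 and 14.4 FPKM in native cells and 2.36, 1.88 and 2.02 FPKM with shCDCA7, a log2 change of -2.38 (-2.33) with SE 0.11 and adjusted p = 0.00166. TFRC, the transferrin receptor through which cells take up iron, went from 90.0, 85.4 and 80.4 FPKM to 15.9, 26.4 and 18.8 FPKM, a log2 change of -2.04 (-2.24) with SE 0.18 and adjusted p = 0.0026. PRMT6, which methylates arginine on histone H3, went from 12.3, 11.8 and 12.2 FPKM to 2.25, 2.85 and 2.77 FPKM, and FADD, the adaptor of death receptors, from 12.9, 13.0 and 13.3 FPKM to 3.54, 1.95 and 4.02 FPKM. INTS5, a subunit of the Integrator complex that cleaves nascent RNA, went from 10.2, 9.63 and 9.18 FPKM to 2.64, 2.54 and 2.84 FPKM.  SLC35C1, the GDP-fucose transporter of the Golgi, went from 11.1, 12.3 and 11.6 FPKM to 2.74, 3.80 and 3.11 FPKM, and KCTD11, an adaptor that restrains Hedgehog signalling, from 8.17, 8.85 and 8.23 FPKM to 2.32, 2.06 and 2.81 FPKM. The stress chaperone HSPA1A went from 39.2, 32.9 and 29.3 FPKM to 9.55, 9.54 and 10.3 FPKM; it is nearly identical to HSPA1B, so reads of the pair may be split between them. CCDC71, TMEM250, TMEM102 and HDHD3 complete the 12, with log2 changes of -1.995 (-2.19), -1.69 (-1.35), -1.63 (-1.27) and -1.51 (-1.25). As the mean of at least 5 FPKM covers both groups, genes low with shCDCA7 passed it only through their control values. HPS6, PRMT6, FADD, INTS5, SLC35C1 and KCTD11 are such genes. Of the 12 falls 11 have at most 3 exons in any annotated transcript, as do 5 of the 12 rises and 17.1% of all genes tested. In GC content of the longest annotated transcript, the falls have a median of 59.7%, the rises 46.1% and all genes tested 48.2%.

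**Figure D2:**
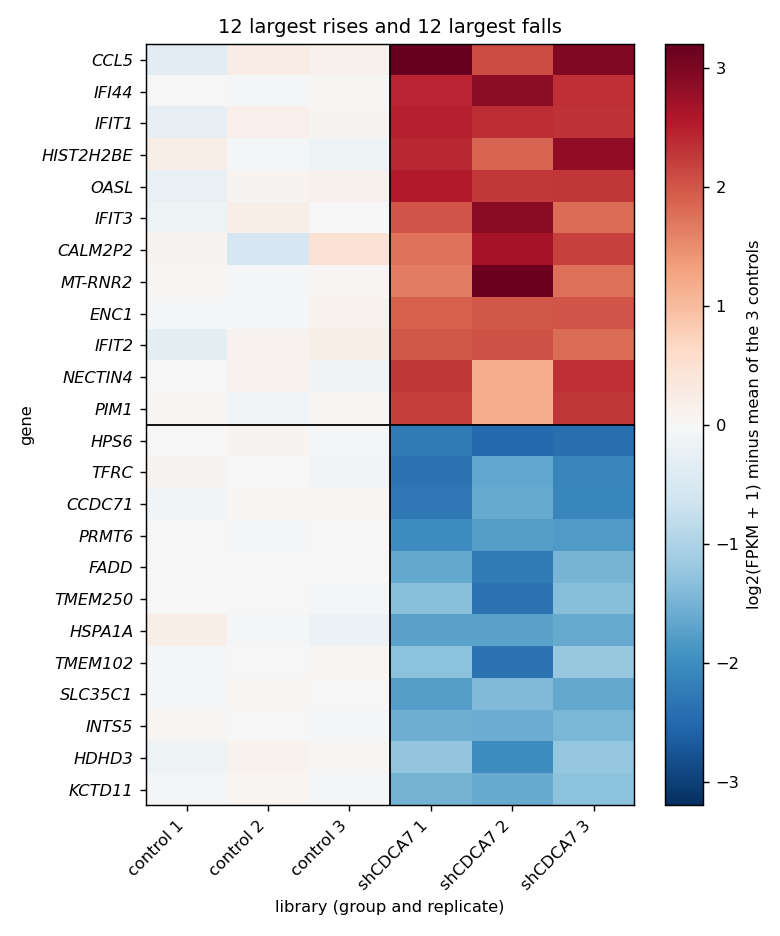
Colour shows log2(FPKM + 1) minus the mean of the 3 controls, with genes as rows (12 largest rises above the line, 12 largest falls below it) and the 6 libraries as columns. All 24 genes have the same sign in the 3 hairpin libraries, which their selection required. The column of shCDCA7 replicate 2 is paler for NECTIN4 and PIM1 and darker for MT-RNR2, TMEM250 and TMEM102.

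Genes that place or read DNA methylation moved both ways. Of this machinery, CDCA7 and HELLS included, 30 genes had a test. With 6 libraries 3 of them passed as higher and 8 as lower, and 6 and 15 without shCDCA7 replicate 2. Leaving out another library gave 1 to 2 higher and 2 to 6 lower. The list's median was -0.14 against 0.04 over all genes, and -0.20 without shCDCA7 replicate 2. UHRF1, which brings DNMT1 to copied DNA, stood at 27.8, 28.4 and 27.3 FPKM in native cells and 14.1, 13.1 and 12.8 FPKM with shCDCA7, a log2 change of -1.01 (-0.997) with SE 0.08 and adjusted p = 0.00244. Its hairpin libraries lie at about the same distance from the controls. DNMT1 itself, named after its values were seen, went from 31.4, 30.9 and 29.3 FPKM to 20.2, 22.6 and 21.2 FPKM, a log2 change of -0.49 (-0.54) with SE 0.08 and adjusted p = 0.0124, and lost its call without any 1 control. UHRF2, a relative of UHRF1 that does not replace it in maintenance, rose from 25.3, 24.3 and 24.7 FPKM to 42.6, 50.4 and 42.4 FPKM, a log2 change of 0.83 (0.75) with SE 0.10 and adjusted p = 0.00478.

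MBD3, a subunit of the NuRD remodelling complex, went from 12.7, 13.3 and 12.7 FPKM to 6.0, 2.82 and 5.55 FPKM, lowest in shCDCA7 replicate 2, and ZBTB4, a reader of methylated DNA, from 17.1, 18.7 and 17.7 FPKM to 11.3, 9.42 and 10.9 FPKM. Their changes were -1.31 (-1.04) and -0.71 (-0.64). GADD45A, a stress gene linked to demethylation, rose from 17.1, 14.99 and 16.0 FPKM to 76.9, 28.0 and 76.9 FPKM, a change of 1.72 (2.19), and DAXX, a chaperone of histone H3.3, from 22.1, 23.7 and 21.6 FPKM to 31.9, 34.98 and 31.5 FPKM, 0.52 (0.48). Calls were lost for GADD45A without any 1 other library, DAXX without any 1 control, MBD3 without any 1 control and ZBTB4 without control replicate 2. HELLS, the partner of CDCA7, stood at 5.14, 5.52 and 5.82 FPKM in native cells and 4.13, 6.27 and 4.23 FPKM with shCDCA7. Replicates 1 and 3 of shCDCA7 lie below all controls and replicate 2 above them, and HELLS did not pass with 6 libraries (-0.16, adjusted p = 0.507) and was called lower without that library, with -0.32, adjusted p = 0.00673, and 5.49 ± 0.342 FPKM (SD, n = 3) in the controls. Of 68 germline and cancer-testis genes, which promoter methylation commonly keeps silent, 7 reached a mean of 1 FPKM. Of these 0 were called higher and 1 lower, MAGEA2B (3.15, 1.78 and 1.96 FPKM to 0.653, 0.181 and 0.305 FPKM), which is nearly identical to MAGEA2. MAGEA2B passed the mean of 1 FPKM only through its control values. MAGEA2, under a mean of 1 FPKM, went from 0.144, 0.543 and 0.594 FPKM to 1.22, 0.0322 and 1.40 FPKM. In shCDCA7 replicates 1 and 3 it moved opposite to MAGEA2B, and reads may be split between the 2 genes, which was not tested. Of 20 imprinted genes 3 were called higher and 2 lower with 6 libraries, beside 11.6% and 9.09% over all genes, and 8 and 6 without shCDCA7 replicate 2. Among those called were GNAS, the stimulatory G protein subunit, with 0.53 (0.45), and FAM50B with -1.03 (-0.96). Leaving out another library left 0 to 2 imprinted genes higher and 1 lower, and GNAS was not called without any 1 control.

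Genes of the G1/S transition and DNA replication were called lower and not higher. Of 61 tested, 0 were called higher and 21 lower and 40 did not pass, and without shCDCA7 replicate 2 the counts were 4 higher and 49 lower. Leaving out another library gave 4 to 11 lower. Their median change was -0.39 (-0.45), and -0.46, -0.22 and -0.45 in hairpin replicates 1, 2 and 3. Summed over the list, FPKM stood at 1580.0, 1616 and 1569 in the controls and 1208, 1534 and 1199 with shCDCA7, so the sum in shCDCA7 replicate 2 lay near the controls. E2F1, the factor that drives entry into S phase, stood at 26.0, 26.9 and 26.0 FPKM in native cells and 14.2, 7.94 and 14.6 FPKM with shCDCA7, lowest in shCDCA7 replicate 2, a log2 change of -1.09 (-0.83) with SE 0.22 and adjusted p = 0.0199. Its call was lost without any 1 control. ASF1B and CHAF1A are histone chaperones that act behind the fork. ASF1B went from 32.7, 37.0 and 33.9 FPKM to 13.3, 14.4 and 14.9 FPKM, a log2 change of -1.23 (-1.24) with SE 0.09 and adjusted p = 0.002, and CHAF1A, the large subunit of CAF-1, from 18.6, 18.0 and 16.9 FPKM to 7.61, 9.06 and 7.42 FPKM, a log2 change of -1.06 (-1.14) with SE 0.11 and adjusted p = 0.00324. Bulk RNA cannot tell fewer cells in S phase from less of these RNAs per cell. As a group of their own, homologous recombination and Fanconi genes had 0 of 43 higher and 4 lower, close to the share of 9.09% over all genes. XRCC2, ATRIP and FANCF are among the 4. XRCC2, a factor of homologous recombination, went from 5.95, 5.10 and 5.88 FPKM to 1.54, 2.58 and 1.86 FPKM, a log2 change of -1.16 (-1.30). Without shCDCA7 replicate 2 4 were higher and 22 lower, with hairpin medians of -0.17, 0.21 and -0.21 in replicates 1, 2 and 3, and without another library 1 to 3 were lower. FANCF and ATRIP had changes of -0.80 (-0.77) and -0.70 (-0.79), and lost the call (FANCF without control replicate 2, ATRIP without control replicate 1 or 2).

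More mitotic genes were called higher than lower, and most did not pass. Of 68 tested, 16 were called higher and 3 lower, 49 did not pass, and the calls were 41 and 13 without shCDCA7 replicate 2. Leaving out another library gave 3 to 13 higher and 0 to 1 lower. The median was 0.35 and 0.20, and 0.17, 0.62 and 0.23 in hairpin replicates 1, 2 and 3, so shCDCA7 replicate 2 was the highest. Under library totals it was 0.09, with 11 higher and 7 lower. CDK1, the kinase that starts mitosis, stood at 27.5, 28.1 and 31.1 FPKM in native cells and 52.1, 57.7 and 52.8 FPKM with shCDCA7, a log2 change of 0.88 (0.84) with SE 0.09 and adjusted p = 0.00351. PTTG1, the securin that guards sister chromatids, went from 42.9, 43.7 and 50.7 FPKM to 90.9, 83.4 and 95.0 FPKM, a log2 change of 0.96 (1.01) with SE 0.10 and adjusted p = 0.00397. Both had the hairpin libraries close together. NEK2, a centrosome kinase, and DLGAP5, a spindle protein, had changes of 1.03 (0.86) and 1.12 (0.88) and lost the call in some fits (NEK2 without control replicate 1 or 2, DLGAP5 without any 1 control). The 3 that fell were MYBL2, a driver of late cell-cycle genes, the phosphatase CDC25A and the separase ESPL1, with -0.61 (-0.75), -0.56 (-0.60) and -0.37 (-0.35). Each of the 3 lost its call without control replicate 1, 2 or 3, and MYBL2 and ESPL1 also without shCDCA7 replicate 1 or 3.

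Clustered histone genes make RNAs that mostly lack a poly(A) tail, and the sources used here do not say how RNA was selected for the libraries. Of 90 listed, 18 had a mean of at least 1 FPKM and 17 were tested, of which 9 were called higher and 0 lower. Without shCDCA7 replicate 2 these were 16 and 0, and without another library 4 to 8 higher and 0 lower. Their median of 1.005 (1.18 without shCDCA7 replicate 2) was the highest of the 38 lists with at least 5 genes tested. HIST1H3H went from 1.70, 1.95 and 1.82 FPKM to 6.90, 6.62 and 7.54 FPKM, a log2 change of 1.505 (1.54) with SE 0.10 and adjusted p = 0.00181, and HIST1H4I from 12.9, 11.4 and 13.4 FPKM to 30.3, 37.5 and 28.5 FPKM, a log2 change of 1.28 (1.17) with SE 0.13 and adjusted p = 0.00329. HIST1H2BC went from 8.91, 8.82 and 7.67 FPKM to 26.6, 16.2 and 30.4 FPKM and lost its call without any 1 control. Members of these families are close in sequence, and reads may be split between them.

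More interferon-stimulated genes were called higher than lower. Of 49 tested, 19 were called higher and 1 lower and 29 did not pass. Without shCDCA7 replicate 2 the counts were 31 and 6, and without another library 12 to 17 higher and 1 lower. The median was 0.47 and 0.42, and 0.54, 0.64 and 0.42 in hairpin replicates 1, 2 and 3. In FPKM summed over all 73 listed genes, the controls stood at 667, 734 and 700.0 and the hairpin libraries at 1217, 917 and 1181, lowest of the hairpin libraries in shCDCA7 replicate 2. ISG15, a ubiquitin-like modifier named after its values were seen, stood at 44.8, 56.1 and 51.6 FPKM in native cells and 199.7, 60.3 and 171 FPKM with shCDCA7. It was near the controls in shCDCA7 replicate 2, did not pass with 6 libraries (1.32, adjusted p = 0.0783) and was called higher without that library (1.85, adjusted p = 3.45e-05). The gene called lower was TRIM21, a receptor for antibody inside the cell, which went from 7.85, 6.96 and 7.91 FPKM to 3.67, 3.86 and 3.80 FPKM, a log2 change of -0.84 (-0.85) with SE 0.10 and adjusted p = 0.00514.

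The sequence GAAANNGAA shown in capitals in the windows of IFI44, IFIT1 and IFIT3 was held by 27 of 40 (67.5%) interferon-stimulated genes matched to the RefSeq promoter table. Over all genes of that table it was held by 2693 of 27305 (9.86%), and over the genes tested here by 749 of 8622 (8.69%). Within the list, 9 of 14 called higher and 17 of 25 not called held it. The E2F site was held by 27 of 53 (50.9%) replication genes, by 603 of 8622 (6.99%) of the genes tested and by 1090 of 27305 (3.99%) of the table. Among replication genes it was in 10 of 18 called lower and 17 of 35 not called. Over all calls, 103 of 983 (10.5%) genes called higher held the interferon sequence, and 73 of 780 (9.36%) called lower held an E2F site. Without shCDCA7 replicate 2 these were 273 of 2969 (9.2%) and 224 of 2430 (9.22%).

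Of 24 sensors, adaptors, interferons and receptors 3 were called higher and 3 lower, beside 11.6% and 9.09% over all genes. The other 18 did not pass (8 and 8 called without shCDCA7 replicate 2, 2 and 0 to 1 without another library). The median was 0.00 (0.07), and -0.23 under library totals. The 3 called higher were 2 cytosolic RNA sensors, IFIH1 and DDX58, and the interferon gamma receptor IFNGR1, with a change of 0.38 (0.38) and a call lost without any 1 other library. IFIH1 (MDA5), which senses long double-stranded RNA, stood at 2.86, 2.60 and 2.60 FPKM in native cells and 7.08, 9.37 and 7.35 FPKM with shCDCA7, a log2 change of 1.27 (1.16) with SE 0.13 and adjusted p = 0.00352. DDX58 (RIG-I), which senses RNA with a 5′ triphosphate, went from 1.22, 1.45 and 1.21 FPKM to 3.59, 4.57 and 3.71 FPKM, a log2 change of 1.11 (1.02) with SE 0.12 and adjusted p = 0.00397. Both are interferon-stimulated themselves. MAVS, the adaptor of both on mitochondria, was lower, from 11.6, 11.8 and 11.6 FPKM to 7.42, 8.89 and 7.73 FPKM, with a log2 change of -0.49 (-0.56), as were MYD88, the adaptor of Toll-like receptors, with a log2 change of -0.47 (-0.55), and the transcription factor IRF3 with one of -0.61 (-0.44). These 3 lost the call in some fits (MAVS without any 1 other library, MYD88 without any 1 other library, IRF3 without any 1 control or shCDCA7 replicate 3).

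Genes of class I antigen presentation were called higher and not lower: 9 of 19, and 15 without shCDCA7 replicate 2, with 4 to 7 without another library. Their median was 0.49 and 0.69, and 0.71, 0.46 and 0.63 in hairpin replicates 1, 2 and 3. B2M, the light chain of the class I complex, stood at 19.1, 18.99 and 20.02 FPKM in native cells and 46.9, 37.5 and 46.5 FPKM with shCDCA7, a log2 change of 1.12 (1.23) with SE 0.11 and adjusted p = 0.00313. HLA-E, a class I molecule read by natural killer cells, went from 86.2, 86.8 and 85.4 FPKM to 193, 143 and 199.6 FPKM, a log2 change of 1.03 (1.18) with SE 0.14 and adjusted p = 0.00699. For both genes shCDCA7 replicate 2 lay between the controls and the other hairpin libraries. TAP1, a peptide transporter, and PSMB9, a subunit of the immunoproteasome, had changes of 0.91 (1.05) and 1.09 (1.21), and lost the call in some fits (TAP1 without control replicate 1 or 2, PSMB9 without control replicate 1). The class I genes are similar in sequence, and reads may be split between them.

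Targets and parts of NF-κB were called higher and, with 6 libraries, not lower. Of 27 inflammatory genes 11 were called higher and 0 lower, with 19 and 2 without shCDCA7 replicate 2 and 4 to 9 higher without another library. The median was 0.37 and 0.64. NFKBIA, the inhibitor that NF-κB induces, went from 11.4, 12.3 and 11.4 FPKM to 30.2, 26.6 and 34.2 FPKM, a log2 change of 1.30 (1.39) with SE 0.11 and adjusted p = 0.00249. IL1A, an alarm cytokine of epithelium, went from 20.2, 17.5 and 19.7 FPKM to 51.7, 45.8 and 41.4 FPKM, a log2 change of 1.23 (1.23) with SE 0.11 and adjusted p = 0.0028, and BIRC3, an inhibitor of apoptosis, from 1.55, 1.57 and 1.24 FPKM to 4.07, 5.11 and 4.01 FPKM, a log2 change of 1.13 (1.04) with SE 0.13 and adjusted p = 0.00437. The hairpin libraries of these 3 genes lie together.

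In the TGF-β pathway, ligands bind paired receptor kinases that phosphorylate SMAD2 and SMAD3, SMAD4 joins them in the nucleus, and SMAD7 blocks the receptor. SMAD4 stood at 0.695, 0.525 and 0.655 FPKM in native cells and 0.945, 0.980 and 1.03 FPKM with shCDCA7, higher in each hairpin library, but with a mean of 0.805 FPKM it lies under the limit of 1 used here. Its change was 0.29 (adjusted p = 0.0358) from 6 libraries and 0.29 (adjusted p = 0.0126) without shCDCA7 replicate 2, under 0.05 in both fits. SMAD4 takes part in no count of calls, and its fits with another library left out are not given. SMAD7 stood at 3.15, 3.35 and 3.15 FPKM in native cells and 4.12, 1.87 and 3.98 FPKM with shCDCA7. Replicates 1 and 3 of shCDCA7 lie above all controls and replicate 2 below them, and the change was -0.01 (adjusted p = 0.979) from 6 libraries and 0.26, adjusted p = 0.0144, without shCDCA7 replicate 2. Of 31 pathway components 5 were called higher and 2 lower, beside 11.6% and 9.09% over all genes. The counts were 10 and 9 without shCDCA7 replicate 2, and 0 to 3 and 1 without another library. The median of the components was 0.00, and -0.20 under library totals. The ligand TGFB2 went from 11.1, 10.7 and 10.3 FPKM to 19.1, 33.001 and 21.0 FPKM, with changes of 1.08 (0.85), and the corepressor TGIF1 from 5.16, 5.31 and 5.67 FPKM to 10.5, 8.18 and 9.06 FPKM, 0.68 (0.75). The coreceptor TGFBR3 and the activin antagonist FST had changes of 0.58 (0.49) and 0.57 (0.58). All 4 lost the call without control replicate 1, 2 or 3, and FST also without shCDCA7 replicate 1 or 3. LTBP2, a matrix protein related to the latent TGF-β binders, and SKI, a corepressor of SMADs, were lower, with -0.72 (-0.74) and -0.44 (-0.49), the latter not called without any 1 other library.

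Response genes of TGF-β had 7 of 33 higher and 2 lower, the latter being LTBP2 and SKI, and 18 and 4 without shCDCA7 replicate 2. Leaving out another library gave 3 to 6 higher and 1 lower. The median was 0.29, and 0.04 under library totals. PLAU, the urokinase protease, stood at 16.6, 18.2 and 18.8 FPKM in native cells and 71.8, 44.5 and 72.8 FPKM with shCDCA7, a log2 change of 1.73 (1.96) with SE 0.20 and adjusted p = 0.00462. CYR61, a matricellular protein also driven by YAP and by serum, went from 539.8, 470.2 and 505 FPKM to 1809, 1326 and 1860.0 FPKM, a log2 change of 1.71 (1.86) with SE 0.17 and adjusted p = 0.00313. Both were lowest among hairpin libraries in shCDCA7 replicate 2 and still apart from the controls. BHLHE40, a repressor in the clock, and PLAUR, the urokinase receptor, rose with 0.99 (1.11) and 0.96 (1.11), and PLAUR was not called without control replicate 1.

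Markers of the transition showed no single direction. CDH1, the cadherin of epithelial junctions, stood at 58.9, 60.7 and 57.7 FPKM in native cells and 75.2, 127 and 78.5 FPKM with shCDCA7. Each hairpin library was above the controls and shCDCA7 replicate 2 highest, and the gene did not pass with 6 libraries (0.61, adjusted p = 0.0787) but was called higher without that one (0.37, adjusted p = 0.000365). TWIST1, a factor that drives the transition, stood at 9.15, 8.48 and 9.47 FPKM in native cells and 12.8, 6.69 and 12.5 FPKM with shCDCA7, below the controls in shCDCA7 replicate 2 and above them in the other hairpin libraries (0.17, adjusted p = 0.64). Without it the change was 0.44, adjusted p = 0.00079, and under library totals with 6 libraries its sign turned. SNAI2, a repressor of CDH1, had 6.35, 7.23 and 7.12 FPKM in native cells and 6.66, 7.78 and 6.56 FPKM with shCDCA7 (0.02, adjusted p = 0.934), and the sign of its change turned without shCDCA7 replicate 2. FN1, fibronectin, had 6.03, 6.16 and 5.83 FPKM in native cells and 6.25, 13.0 and 7.77 FPKM with shCDCA7 (0.46, adjusted p = 0.217), highest in shCDCA7 replicate 2, and without it 0.19, adjusted p = 0.11. VIM, a filament protein of mesenchymal cells, lies under a mean of 1 FPKM, with 0.236, 0.189 and 0.252 FPKM in native cells and 0.405, 1.11 and 0.573 FPKM with shCDCA7. It was higher in each hairpin library, with a change of 0.45 (adjusted p = 0.0765) from 6 libraries and 0.28 (adjusted p = 0.012) without shCDCA7 replicate 2, where it was called higher. The factors SNAI1 and ZEB1 also stayed under a mean of 1 FPKM, and no read was found in the 6 libraries for the mesenchymal cadherin CDH2 or for ZEB2. Of 13 transition and mesenchymal genes in the fit 2 were called higher and 0 lower (5 and 3 without shCDCA7 replicate 2, 0 to 1 higher without another library), the lectin LGALS1 (0.94 (1.13)) and the integrin ITGAV (0.45 (0.36)). Both of these calls were lost without control replicate 1, 2 or 3 and without shCDCA7 replicate 3, and that of ITGAV also without shCDCA7 replicate 1. The list's median was 0.17, and -0.07 under library totals.

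Epithelial adhesion and polarity genes were mostly on the higher side. Of 42 tested, 16 were called higher and 2 lower, and 30 and 3 without shCDCA7 replicate 2, with 5 to 12 higher and 0 to 2 lower without another library. The median was 0.46, 0.41 without shCDCA7 replicate 2 and 0.20 under library totals. OCLN, occludin of the tight junction, stood at 3.07, 3.13 and 3.69 FPKM in native cells and 7.04, 8.33 and 8.19 FPKM with shCDCA7, a log2 change of 1.04 (1.003) with SE 0.12 and adjusted p = 0.00448. OVOL1, a repressor of mesenchymal genes, went from 0.425, 0.508 and 0.572 FPKM to 2.69, 2.01 and 2.59 FPKM, a log2 change of 1.19 (1.28) with SE 0.11 and adjusted p = 0.00266. It passed the limit of a mean of 1 FPKM only through its hairpin values. CLDN4, a claudin, went from 61.2, 66.3 and 60.7 FPKM to 215, 91.4 and 223 FPKM, with changes of 1.37 (1.79) and shCDCA7 replicate 2 nearest to the controls. The lower ones were PKP3, a desmosomal plakophilin, and ESRP2, a splicing factor of epithelial cells, with -0.97 (-0.74) and -0.50 (-0.47). Calls were lost for CLDN4 without any 1 other library, PKP3 without any 1 control and ESRP2 without any 1 control or shCDCA7 replicate 3.

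Squamous and basal genes moved both ways. Of 30 tested, 11 were called higher and 3 lower, with 15 and 10 without shCDCA7 replicate 2 and 1 to 8 and 1 without another library. The median was 0.30 and 0.18, and 0.06 under library totals. KRT17, a keratin of activated keratinocytes, rose from the levels given above with a log2 change of 1.22 (1.39), and KRT16, another one, from 3.55, 3.91 and 5.13 FPKM to 10.8, 8.21 and 8.60 FPKM. KLF4, a factor of differentiation, had 1.11 (1.40), and the basal neurotrophin receptor NGFR 0.93 (1.11). The genes called lower were PLEC and the integrins ITGB4 and ITGA3. PLEC, plectin, went from 57.9, 60.4 and 57.9 FPKM to 26.0, 27.3 and 26.9 FPKM, a log2 change of -1.11 (-1.12) with SE 0.08 and adjusted p = 0.00181. ITGB4 and ITGA3 had -0.40 (-0.45) and -0.39 (-0.44). Calls were lost for KRT16 without control replicate 1 or 2, KLF4 without any 1 other library, NGFR without any 1 control or shCDCA7 replicate 3, ITGB4 without any 1 other library and ITGA3 without any 1 other library. Of 58 cornified envelope genes 18 were tested, 3 of them called higher and 1 lower (9 and 3 without shCDCA7 replicate 2, 1 to 3 and 1 without another library), and the median of 0.11 turned to -0.13 under library totals. Among them EMP1, a membrane protein, had 0.84 (0.78) and TGM2, a transglutaminase, -0.94 (-0.9996).

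Immediate-early genes are switched on within minutes by growth factors and stress. Of the AP-1 and immediate-early genes, 15 of 33 were called higher and 0 lower (29 and 3 without shCDCA7 replicate 2, 6 to 11 and 0 without another library), and the median was 0.75 (0.84). ATF3, a factor of the stress response, stood at 23.8, 23.9 and 23.8 FPKM in native cells and 80.3, 65.5 and 82.0 FPKM with shCDCA7, a log2 change of 1.62 (1.73) with SE 0.11 and adjusted p = 0.00166. KLF6 went from 16.5, 16.0 and 16.4 FPKM to 36.4, 44.2 and 40.7 FPKM, a log2 change of 1.26 (1.19) with SE 0.10 and adjusted p = 0.002. MAFF, a small MAF factor, went from 8.88, 7.70 and 7.86 FPKM to 29.8, 11.6 and 28.2 FPKM with a change of 1.30 (1.72), and without any 1 other library it was not called. JUN and FOS, the core of AP-1, named after their values were seen, did not pass with 6 libraries. JUN had 36.8, 36.2 and 39.2 FPKM in native cells and 71.4, 33.7 and 76.5 FPKM with shCDCA7 and FOS 37.7, 37.0 and 41.1 FPKM in native cells and 56.2, 25.9 and 68.8 FPKM with shCDCA7, with shCDCA7 replicate 2 below the controls in each. In the EGFR and MAPK list 6 of 23 were called higher and 1 lower (12 and 8 without shCDCA7 replicate 2, 4 to 6 and 0 without another library), and 16 did not pass. Its median of 0.17 (0.23) turned to -0.04 under library totals. Called higher were, among others, the phosphatases DUSP5 and DUSP1, the EGFR inhibitor ERRFI1 and the EGFR ligand HBEGF. DUSP1 went from 8.24, 9.12 and 8.12 FPKM to 20.5, 16.5 and 24.3 FPKM, a log2 change of 1.16 (1.30) with SE 0.15 and adjusted p = 0.00619, and HBEGF from 2.91, 2.80 and 2.83 FPKM to 5.64, 5.47 and 5.33 FPKM, a log2 change of 0.75 (0.75) with SE 0.09 and adjusted p = 0.00589. ERRFI1 and DUSP5 had changes of 1.60 (1.66) and 1.34 (1.43). The lower one was CCND1, cyclin D1, with -0.54 (-0.67), not called without any 1 other library.

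Among p53 target genes 8 of 30 were called higher and 1 lower (18 and 4 without shCDCA7 replicate 2, 2 to 5 and 0 without another library), with a median of 0.22 (0.39) that came to 0.01 under library totals. PMAIP1 (NOXA), which blocks MCL1, went from 10.4, 10.5 and 13.6 FPKM to 46.3, 35.5 and 46.5 FPKM, a log2 change of 1.81 (1.93) with SE 0.15 and adjusted p = 0.00244. PLK2, a kinase induced by stress, went from 38.5, 37.2 and 38.3 FPKM to 101, 86.3 and 99.0 FPKM, a log2 change of 1.31 (1.38) with SE 0.09 and adjusted p = 0.00181. CDKN1A (p21), named after its values were seen, had 15.1, 14.8 and 13.7 FPKM in native cells and 29.4, 14.7 and 27.3 FPKM with shCDCA7 and did not pass with 6 libraries, with shCDCA7 replicate 2 beside the controls. BTG2 and the repair factor XPC had changes of 0.77 (0.86) and -0.49 (-0.53), and lost the call (BTG2 without any 1 control, XPC without any 1 other library). Of the genes of the unfolded protein and amino acid stress responses 9 of 42 were called higher and 1 lower (21 and 4 without shCDCA7 replicate 2, 4 to 6 and 0 to 1 without another library), with a median of 0.21 (0.20), and -0.04 under library totals. HERPUD1, a part of the degradation machinery of the endoplasmic reticulum, went from 16.4, 15.5 and 15.4 FPKM to 54.3, 44.7 and 52.9 FPKM, a log2 change of 1.62 (1.70) with SE 0.10 and adjusted p = 0.00166, and the chaperone DNAJB9 from 4.597, 4.08 and 4.6001 FPKM to 12.1, 13.0 and 13.1 FPKM, a log2 change of 1.34 (1.33) with SE 0.10 and adjusted p = 0.00188. DDIT3 (CHOP) had 1.09 (1.41) and the amino acid transporter SLC7A5 -0.78 (-0.70), and both lost the call (DDIT3 without any 1 other library, SLC7A5 without control replicate 2).

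Of the cytosolic heat shock genes 4 of 31 were called higher and 3 lower, beside 11.6% and 9.09% over all genes. The counts were 10 and 9 without shCDCA7 replicate 2, and 0 to 3 and 2 without another library. The list's median of 0.10 (0.02) turned to -0.14 under library totals. HSPA1B stood at 57.4, 51.5 and 50.2 FPKM in native cells and 20.4, 17.6 and 26.3 FPKM with shCDCA7, a log2 change of -1.28 (-1.16) with SE 0.15 and adjusted p = 0.00509, beside its near-identical neighbour HSPA1A described above. The cochaperone DNAJA1 had -0.64 (-0.82) and was not called without any 1 other library. Genes of the NRF2 antioxidant response had one of the larger shares of calls. Of these, 17 of 35 were called higher and 1 lower (28 and 1 without shCDCA7 replicate 2, 5 to 12 and 0 to 1 without another library), with a median of 0.46 (0.46), and 0.20 under library totals. TXNRD1, thioredoxin reductase, stood at 49.95, 48.4 and 51.9 FPKM in native cells and 102, 94.7 and 96.7 FPKM with shCDCA7, a log2 change of 0.95 (0.98) with SE 0.08 and adjusted p = 0.00244. GSR, glutathione reductase, went from 27.9, 30.7 and 30.1 FPKM to 54.8, 55.3 and 52.8 FPKM, a log2 change of 0.86 (0.84) with SE 0.08 and adjusted p = 0.00294. KEAP1, the inhibitor of NRF2, was the 1 called lower, from 25.2, 26.2 and 23.98 FPKM to 16.8, 15.3 and 15.3 FPKM (-0.64 (-0.62)), and lost the call without control replicate 1 or 2.

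Hypoxia and glycolysis genes moved both ways: 7 of 37 were called higher and 3 lower (12 and 12 without shCDCA7 replicate 2, 2 to 5 and 1 to 2 without another library), with a median of -0.03 (-0.02) whose sign turned under upper quartile scaling. ADM, adrenomedullin, went from 22.7, 23.1 and 23.95 FPKM to 65.8, 46.5 and 83.2 FPKM, a log2 change of 1.41 (1.63) with SE 0.20 and adjusted p = 0.0077, and the glucose transporter SLC2A3 from 13.1, 12.7 and 12.6 FPKM to 28.6, 30.9 and 30.3 FPKM, a log2 change of 1.16 (1.14) with SE 0.08 and adjusted p = 0.00181. CA9, carbonic anhydrase of hypoxic tumour cells, went from 11.8, 11.1 and 9.82 FPKM to 4.01, 3.24 and 4.26 FPKM, a log2 change of -1.30 (-1.21) with SE 0.13 and adjusted p = 0.00313. HIF1A, the oxygen-controlled factor, had 1.37 (1.07) and the mitophagy receptor BNIP3 -0.44 (-0.44), with calls lost for HIF1A without any 1 control and BNIP3 without any 1 other library. In cell death, 6 of 32 were called higher and 4 lower (11 and 5 without shCDCA7 replicate 2, 3 to 5 and 1 to 2 without another library) of the death receptor and BCL2 family genes, with a median of 0.05 (0.10), and -0.18 under library totals. MCL1, a guard against apoptosis, went from 85.3, 79.4 and 85.1 FPKM to 163, 158 and 169 FPKM, a log2 change of 0.96 (0.99) with SE 0.08 and adjusted p = 0.00244. Among those called lower beside FADD, RIPK1, a kinase of the death receptor complex, went from 5.75, 7.04 and 6.50 FPKM to 2.32, 3.28 and 2.69 FPKM, and the protease CASP8 from 2.07, 1.80 and 1.81 FPKM to 1.15, 1.07 and 1.22 FPKM. MLKL, the pore of necroptosis, went from 9.91, 9.68 and 8.50 FPKM to 3.90, 6.88 and 4.0 FPKM. Their changes were -0.99 (-1.08), -0.43 (-0.40) and -0.84 (-1.06), and calls were lost for RIPK1 without control replicate 2, CASP8 without any 1 other library, MLKL without any 1 other library. BCL2L11 (BIM), a killer of the BCL2 family, had 0.72 (0.82), not called without any 1 control.

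Enzymes of cholesterol synthesis were more often higher. Of the sterol and fatty acid genes 14 of 34 were called higher and 2 lower (23 and 3 without shCDCA7 replicate 2, 7 to 10 and 0 to 1 without another library), with a median of 0.31 (0.38), and 0.06 under library totals. MSMO1, a sterol oxidase, stood at 33.9, 32.996 and 40.9 FPKM in native cells and 97.8, 94.5 and 97.1 FPKM with shCDCA7, a log2 change of 1.41 (1.42) with SE 0.10 and adjusted p = 0.002. FDFT1, squalene synthase, went from 37.2, 37.7 and 36.6 FPKM to 76.8, 70.1 and 74.6 FPKM, a log2 change of 0.97 (1.01) with SE 0.08 and adjusted p = 0.00236, and INSIG1, which holds back the SREBP factors, from 35.6, 35.2 and 35.2 FPKM to 70.4, 86.4 and 74.4 FPKM, a log2 change of 1.10 (1.02) with SE 0.10 and adjusted p = 0.00266. STARD4, a sterol carrier, had 1.17 (1.205). The lower ones were PMVK, phosphomevalonate kinase, and the desaturase FADS1, with -0.53 (-0.52) and -0.47 (-0.57), and calls were lost for PMVK without any 1 control and FADS1 without any 1 other library.

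Around the fall of TFRC, iron genes showed no common direction: 4 of 25 were called higher and 2 lower, beside 11.6% and 9.09% over all genes. The counts were 9 and 5 without shCDCA7 replicate 2, and 1 to 2 and 1 without another library. The list's median of 0.10 (0.04) turned to -0.15 under library totals. FBXL5, the iron sensor that marks iron regulatory proteins for degradation, went from 8.23, 8.01 and 7.86 FPKM to 15.9, 19.7 and 15.3 FPKM, a log2 change of 0.98 (0.88) with SE 0.12 and adjusted p = 0.00509. HMOX1, heme oxygenase, had 0.57 (0.62) and the ferrireductase STEAP3 -0.58 (-0.69), with calls lost for HMOX1 without any 1 control and STEAP3 without any 1 other library. FTH1, the ferritin heavy chain, is among the genes in which shCDCA7 replicate 2 stood apart and is described with them.

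Of MYC, its partners and antagonists and the genes of ribosome assembly, 7 of 58 were called higher and 12 lower (15 and 28 without shCDCA7 replicate 2, 2 to 6 and 3 to 7 without another library), and 39 did not pass. The median was -0.07 (-0.13). MYC stood at 11.6, 10.1 and 10.3 FPKM in native cells and 26.8, 19.97 and 32.6 FPKM with shCDCA7, a change of 1.21 (1.39) not called without control replicate 2. MXD1, which competes with MYC for its partner MAX, went from 3.75, 3.55 and 4.09 FPKM to 10.98, 11.1 and 12.2 FPKM, a log2 change of 1.38 (1.39) with SE 0.10 and adjusted p = 0.002. MXI1, another such antagonist, had 0.67 (0.56) and lost its call without any 1 control. RRS1 and PES1, which assemble the large ribosomal subunit, went from 28.9, 28.0 and 30.1 FPKM to 17.9, 15.8 and 16.2 FPKM and from 28.1, 26.4 and 26.0 FPKM to 16.8, 16.5 and 16.5 FPKM. Their changes were -0.77 (-0.74) and -0.66 (-0.66), and BOP1, the partner of PES1, had -0.68 (-0.59), not called without control replicate 1 or 2. EIF4A1, a translation helicase, went from 2.14, 2.21 and 1.98 FPKM to 5.29, 4.99 and 7.54 FPKM, and overlapping transcripts may share its reads.

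Ribosomal protein genes moved by small amounts. With 6 libraries 13 of 79 were called higher and 0 lower (65 and 1 without shCDCA7 replicate 2, 0 to 5 and 0 without another library), with a median of 0.23 (0.29), 0.32, 0.24 and 0.26 in hairpin replicates 1, 2 and 3, and -0.01 under library totals. RPL13A and RPL21 had the largest changes called, with 0.53 (0.43) and 0.48 (0.44), and both lost the call without any 1 control. Their many pseudogenes may share reads with them. Of the nuclear genes of the respiratory chain 8 of 82 were called higher and 1 lower (52 and 4 without shCDCA7 replicate 2, 1 to 3 and 0 without another library), beside 11.6% higher and 9.09% lower over all genes. They had a median of 0.13 (0.23), 0.27, -0.12 and 0.18 in hairpin replicates 1, 2 and 3, and -0.13 under library totals. NDUFB5, a subunit of complex I, had 0.65 (0.60), not called without control replicate 1 or 2. The list also counts the pseudogene COX6A1P2, which stayed called higher with each library left out, with changes of 0.64 to 0.72. Of 15 genes encoded in mitochondrial DNA, with those of transfer RNAs left out, 2 were called higher and 0 lower, MT-RNR2 and the small ribosomal RNA MT-RNR1 (0.98 (0.83)), and 7 and 3 without shCDCA7 replicate 2. Their medians were 0.08, 0.72 and 0.18 in hairpin replicates 1, 2 and 3, so shCDCA7 replicate 2 was the highest. Both calls were lost without any 1 control. Mitochondrial transfer RNA genes had 3 of 12 higher and 1 lower, and 4 and 3 without shCDCA7 replicate 2, beside the same shares over all genes. Their medians were 0.34, -0.42 and -0.09 in hairpin replicates 1, 2 and 3, lowest in replicate 2.

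In the Notch pathway 4 of 26 were called higher and 3 lower, beside 11.6% and 9.09% over all genes. The counts were 12 and 8 without shCDCA7 replicate 2, and 1 to 3 and 0 to 2 without another library. The list had a median of -0.02 (0.04) whose sign turned under upper quartile scaling. The ligand JAG1 went from 12.1, 12.2 and 12.2 FPKM to 25.3, 26.8 and 25.6 FPKM, a log2 change of 1.03 (1.01) with SE 0.08 and adjusted p = 0.002, and the target HES1 from 9.0, 10.8 and 12.6 FPKM to 50.3, 25.2 and 56.4 FPKM, 1.86 (2.21), not called without control replicate 1 or 2. Among YAP and TEAD genes 9 of 27 were called higher and 3 lower (15 and 8 without shCDCA7 replicate 2, 3 to 7 and 1 to 2 without another library), with a median of 0.20 (0.17), and -0.03 under library totals. NUAK2, a kinase that YAP induces, went from 9.32, 10.1 and 10.5 FPKM to 30.1, 21.9 and 32.7 FPKM, a log2 change of 1.40 (1.56) with SE 0.16 and adjusted p = 0.00452. F3, tissue factor, went from 179, 171 and 176 FPKM to 106, 99.8 and 115 FPKM, a log2 change of -0.71 (-0.66) with SE 0.09 and adjusted p = 0.00595. TEAD4 had -0.46 (-0.39), not called without any 1 control. Of the circadian clock genes 5 of 18 were called higher and 3 lower (9 and 5 without shCDCA7 replicate 2, 4 and 0 to 2 without another library), with a median of 0.16 (0.21), and -0.05 under library totals. PER1, a repressor of the clock, went from 7.81, 7.0 and 8.03 FPKM to 31.4, 18.1 and 34.2 FPKM, a log2 change of 1.70 (1.97) with SE 0.23 and adjusted p = 0.00696, and NR1D1 (REV-ERBα) from 11.3, 10.1 and 9.60 FPKM to 26.4, 21.1 and 30.8 FPKM, a log2 change of 1.24 (1.38) with SE 0.15 and adjusted p = 0.00531. PER2 went the other way, with -0.58 (-0.55), and lost the call without control replicate 1 or 2.

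Enzymes that add methyl groups to histones and arginine, or remove them, were more often lower, with PRMT6 first: 2 of 42 were called higher and 7 lower (6 and 19 without shCDCA7 replicate 2, 1 to 2 and 1 to 4 without another library), with a median of -0.06 (-0.14). The 2 called higher, KDM6A and KDM3A, remove methyl groups, and KDM3A lost its call without any 1 control or shCDCA7 replicate 3. SETD1A and SETD1B, which methylate a lysine of histone H3, had -0.65 (-0.49) and -0.61 (-0.57), with calls lost for SETD1A without any 1 control or shCDCA7 replicate 3 and SETD1B without any 1 control. KDM6A (UTX), which removes methyl groups from another lysine of histone H3, rose from 9.99, 9.61 and 9.79 FPKM to 34.6, 43.0 and 34.3 FPKM, a log2 change of 1.82 (1.72) with SE 0.11 and adjusted p = 0.00166.

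Genes of the paraspeckle and of the restriction of unproductive transcription had 1 of 29 higher and 6 lower (5 and 16 without shCDCA7 replicate 2, 1 and 2 to 3 without another library), with a median of -0.17 (-0.21). ZC3H4, which ends such transcription, went from 5.13, 6.51 and 5.72 FPKM to 1.40, 1.44 and 1.66 FPKM, a log2 change of -1.44 (-1.42) with SE 0.12 and adjusted p = 0.00244, and PPP1R10 (PNUTS), which slows polymerase at gene ends, from 7.05, 8.32 and 7.48 FPKM to 1.70, 2.06 and 1.91 FPKM, a log2 change of -1.58 (-1.62) with SE 0.11 and adjusted p = 0.00181. The nuclear RNA MALAT1 went from 16.9, 14.7 and 17.0 FPKM to 54.7, 59.98 and 67.5 FPKM, a log2 change of 1.84 (1.85) with SE 0.11 and adjusted p = 0.00166. Host genes of small nucleolar RNAs were the list most unlike between the hairpin libraries, with medians of 0.44, -0.53 and 0.49 in replicates 1, 2 and 3. With 6 libraries 1 of 20 were called higher and 1 lower (16 and 1 without shCDCA7 replicate 2, 0 to 1 and 0 to 1 without another library), SNHG16 (0.57 (0.62)) and SNHG26 (-0.49 (-0.48)). Both lost the call, SNHG16 without any 1 other library and SNHG26 without any 1 control or shCDCA7 replicate 1. Of the zinc finger genes named ZNF, most of which are repressors that bind DNA, 17 of 271 were called higher and 54 lower (53 and 120 without shCDCA7 replicate 2, 1 to 11 and 9 to 27 without another library), with a median of -0.13 (-0.16). ZNF165 went from 14.1, 15.1 and 14.1 FPKM to 32.3, 49.6 and 35.1 FPKM, ZNF784 from 3.54, 4.37 and 3.09 FPKM to 1.08, 0.391 and 0.580 FPKM and ZNF629 from 4.10, 4.99 and 4.14 FPKM to 1.01, 1.76 and 1.37 FPKM, with changes of 1.35 (1.17), -1.48 (-1.36) and -1.19 (-1.30).

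**Figure D3:**
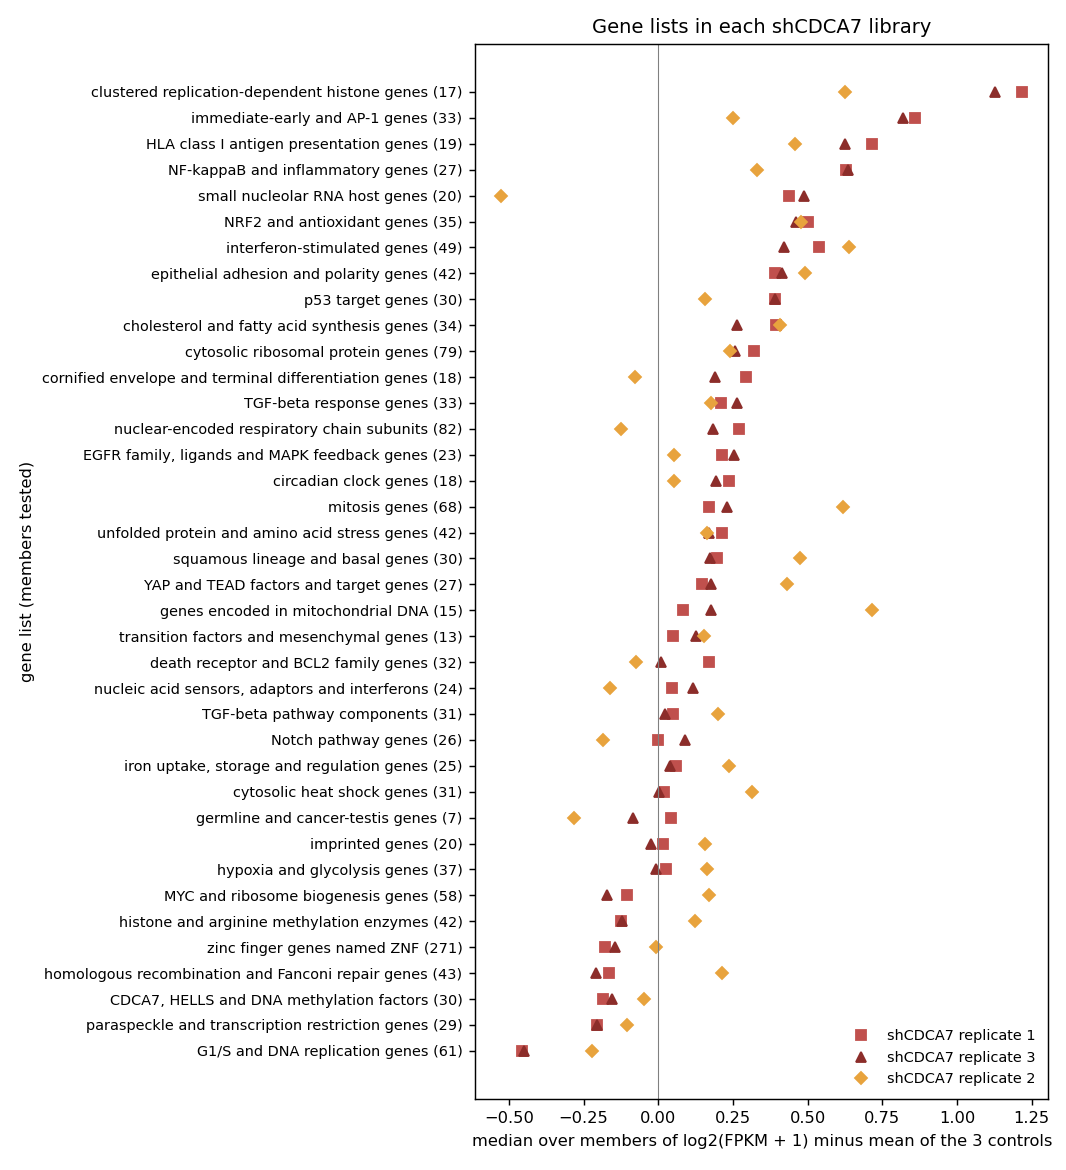
Median difference from the mean of the 3 controls in log2(FPKM + 1) for each gene list with at least 5 genes tested, 1 point per hairpin library (squares shCDCA7 replicate 1, triangles replicate 3, diamonds replicate 2). The median of histones, immediate-early and interferon-stimulated genes lies above 0 and that of G1/S genes below 0 in all 3 libraries, while for host genes of small nucleolar RNAs shCDCA7 replicate 2 is at -0.53 and the other 2 are above 0.

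Of the 200 genes named from the lists and by size that were called, 92 were called again without each of the 6 libraries in turn.

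The distance of shCDCA7 replicate 2 from the other hairpin libraries was general. The median absolute difference from the mean of the controls was 0.46 on the log2 scale in it, and 0.27 in each of the others. Of the 7031 genes called without it, 1933 lay on the other side of the controls in shCDCA7 replicate 2, and 4656 were not called with it.

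Several genes with large changes without shCDCA7 replicate 2 had control levels in it. GDF15, a cytokine of cell stress, stood at 14.4, 15.1 and 16.8 FPKM in native cells, 61.9 and 63.1 FPKM in shCDCA7 replicates 1 and 3 and 14.5 FPKM in shCDCA7 replicate 2. PPP1R15A (GADD34), which restarts translation after stress, stood at 51.9, 51.2 and 47.7 FPKM in native cells, 184 and 211 FPKM in shCDCA7 replicates 1 and 3 and 61.2 FPKM in shCDCA7 replicate 2. HSPA8, the constitutive HSP70 chaperone, stood at 424, 406 and 411 FPKM in native cells, 170.2 and 179 FPKM in shCDCA7 replicates 1 and 3 and 376 FPKM in shCDCA7 replicate 2. In all 3 genes replicates 1 and 3 were far from the controls and replicate 2 was within or near their range. Without shCDCA7 replicate 2 the changes were 1.95, adjusted p = 8.95e-06 for GDF15, 1.95, adjusted p = 8.95e-06 for PPP1R15A and -1.24, adjusted p = 1.11e-05 for HSPA8. With it they were 1.27, adjusted p = 0.141 for GDF15, 1.39, adjusted p = 0.0723 for PPP1R15A and -0.87, adjusted p = 0.088 for HSPA8, and none was called.

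In other genes shCDCA7 replicate 2 went past the controls. FTH1 stood at 319, 341 and 324 FPKM in native cells, 497 and 512 FPKM in shCDCA7 replicates 1 and 3 and 47.5 FPKM in shCDCA7 replicate 2, and the linker histone H1FX at 134, 139 and 139.9 FPKM in native cells, 246 and 231 FPKM in shCDCA7 replicates 1 and 3 and 23.6 FPKM in shCDCA7 replicate 2. TMEM238 stood at 18.1, 17.3 and 20.4 FPKM in native cells, 23.0 and 22.9 FPKM in shCDCA7 replicates 1 and 3 and 1.61 FPKM in shCDCA7 replicate 2. These 3 were above the controls in replicates 1 and 3 and far below them in replicate 2. MT-CO1, a subunit of cytochrome oxidase, stood at 5533, 5784 and 5531 FPKM in native cells, 7609 and 8422 FPKM in shCDCA7 replicates 1 and 3 and 29288 FPKM in shCDCA7 replicate 2, and PTGES3P1, a processed pseudogene, at 10.3, 9.27 and 11.1 FPKM in native cells, 15.2 and 15.7 FPKM in shCDCA7 replicates 1 and 3 and 86.2 FPKM in shCDCA7 replicate 2. RN7SL2, the RNA of the signal recognition particle, stood at 232, 248 and 253 FPKM in native cells, 168 and 75.1 FPKM in shCDCA7 replicates 1 and 3 and 5.60 FPKM in shCDCA7 replicate 2. The 8 genes farthest above in shCDCA7 replicate 2 were 2 mitochondrial genes, 5 pseudogenes and 1 microRNA gene, and the 8 farthest below were 4 small RNAs, 1 pseudogene and 3 coding genes. Among these small RNAs are the mitochondrial transfer RNAs MT-TY and MT-TL2, so mitochondrial genes lay on both sides. What sets this library apart was not tested.

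**Figure D4:**
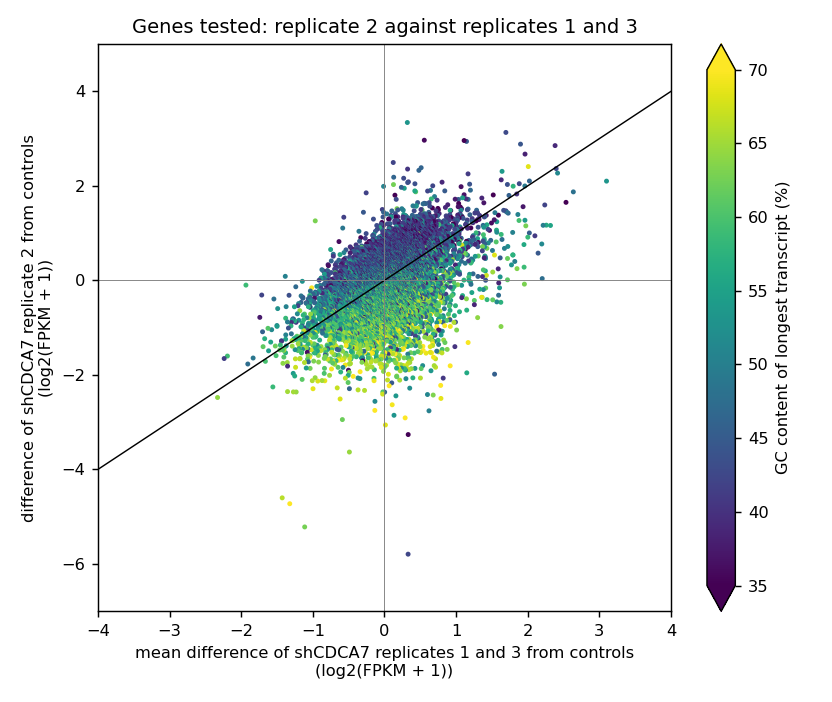
Difference from the controls in log2(FPKM + 1) of shCDCA7 replicate 2 (vertical) against the mean of shCDCA7 replicates 1 and 3 (horizontal), 1 point per gene tested, coloured by GC content of the gene's longest transcript in percent. Genes rich in GC lie lower and genes poor in GC higher at the same horizontal position, and IFIT1, OASL, HPS6 and CDCA7 lie near the diagonal.

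GC content of a gene's longest transcript moved with the difference in shCDCA7 replicate 2 and little in the others. The Pearson correlation across 11459 genes was -0.61 in it and -0.11 and -0.15 in replicates 1 and 3. Its median difference ran from 0.53 in the 209 genes of at most 35% GC to -1.08 in the 399 genes above 65% GC. From 6 libraries the median log2 change ran from 0.32 (0.23) to -0.35 (0.01) between these classes. Among genes above 65% GC 4 were called higher and 42 lower with 6 libraries, and 135 and 113 without shCDCA7 replicate 2. With the GC trend of each library removed, 1842 genes were called higher and 1500 lower, and CDCA7, UHRF1, IFIT1, OASL, HPS6 and TFRC remained called. Chromosome 19, rich in GC, had 31 of 754 genes higher and 106 lower, and 239 and 219 without shCDCA7 replicate 2.

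**Figure D5:**
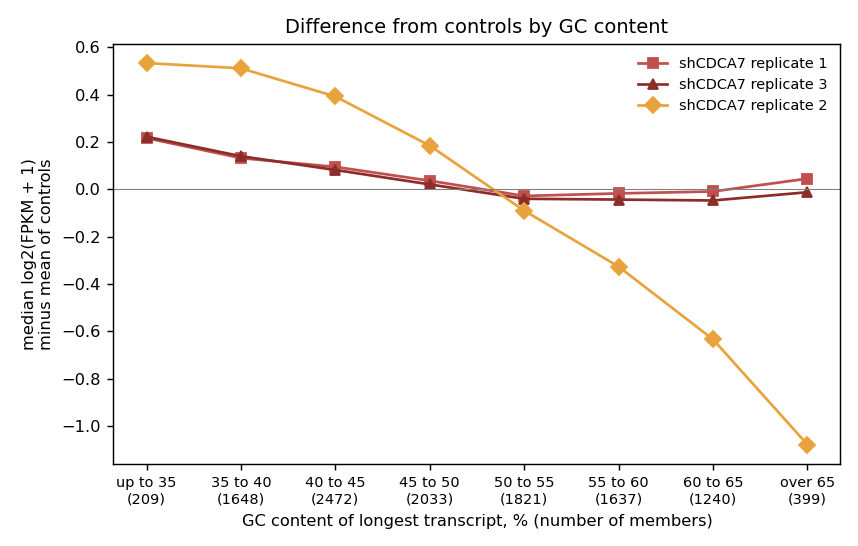
Median difference from the controls in log2(FPKM + 1) for 8 classes of GC content of the gene's longest transcript in percent, 1 line per hairpin library. shCDCA7 replicate 2 runs from 0.53 at the lowest GC to -1.08 at the highest, and replicates 1 and 3 stay between -0.05 and 0.22.

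The level of genes also moved with the calls. In the 1586 genes of 1 to 2 FPKM 6.05% were called higher and 15.7% lower, and 17.8% and 32.7% without shCDCA7 replicate 2, with a median of -0.10 (-0.09). In the 370 genes above 100 FPKM the shares were 20.5% higher and 1.89% lower, and 71.4% and 7.30% without that library, and the median was 0.29 (0.28). Of 1171 genes whose longest annotated transcript by exons has 2 or 3 16.0% were lower, and of 1465 with more than 20 exons 5.80%. This contrast was not seen without shCDCA7 replicate 2, with 30.3% and 32.4% lower. In the genes of 2 or 3 exons the median was 0.03, -0.31 and -0.01 in hairpin replicates 1, 2 and 3, and in those of more than 20 exons -0.05, 0.31 and -0.03. Genes of small nucleolar RNAs had 3 of 25 called higher, and 16 without shCDCA7 replicate 2. Processed pseudogenes had 50 of 354 higher and 7 lower (134 and 21 without it), and reads of their parent genes may be among them.

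At the limit of 1 FPKM, LYSMD4 lay just inside with 1.64, 1.26 and 1.34 FPKM in native cells and 0.522, 0.654 and 0.589 FPKM with shCDCA7, as did AGAP2-AS1 and the pseudogene PFN1P6. LRP11 lay just outside with 0.777, 0.737 and 0.690 FPKM in native cells and 1.41, 0.853 and 1.52 FPKM with shCDCA7, as did MIR6730 and the pseudogene MTND1P23. SMAD4, described above, is likewise outside the limit.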

How the data were processed

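RNA-seq of 6 KYSE150 libraries was analysed, 3 native controls and 3 with a CDCA7 hairpin. The table the authors deposited gives FPKM per gene and library; FPKM multiplied by gene length is a whole multiple of 1 step in each library, so whole reads were recovered for 100% of values, within 0.01 reads. HISAT2 2.0.5 and DESeq2 1.20.0 are named in the submitters' processing notes, which also give the mouse build mm10, whereas all 58735 gene entries match human GENCODE 29 on GRCh38; RNA selection and strand are not given in the sources used here, so overlapping and antisense genes are uncertain. By their values, the deposited FPKM are scaled by median-of-ratios size factors over all 12 libraries.

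Genes that reached 10 reads, at median library size, in 3 of 6 libraries and 15 reads in all (14342) were fitted with limma-trend on log2(FPKM + 1) (limma 3.58.1, R 4.3.3, two-sided), with Benjamini-Hochberg adjustment over all of them and a call at an adjusted p under 0.05. One read is worth 0.0511 to 0.0611 CPM, which limits the precision of genes near 1 FPKM. limma-voom on the recovered reads called 2550 genes. Named genes are the 12 largest rises and 12 largest falls called with and without shCDCA7 replicate 2 at a mean of at least 5 FPKM with no overlap between groups, up to 4 called genes per direction and list with the largest change, fixed transition markers, and the genes farthest apart in shCDCA7 replicate 2 or called without it only; exceptions are marked. Members and lists were chosen with earlier results of these data known. The script was tested on simulated data. Alternatives were other scalings, filters, pseudocounts, weights, a replicate block, GC correction and each library left out. Promoters come from RefSeq (GRCh38.p14), where 8622 of the genes tested were matched. A few items are not reported here.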

Additional observations from a re-analysis of the deposited data

How the results depend on the processing

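The count of genes called depended on which libraries entered. Leaving out 1 library gave 244 to 3932 genes higher and 206 to 3099 lower, against 1333 and 1042 from all 6. Sample weights gave 4255 higher and 3476 lower, and limma-voom without shCDCA7 replicate 2 gave 4145 and 3295. The GC correction without it gave 3920 and 3128. Library totals gave 2381 lower and 701 higher, totals without mitochondrial genes 2071 and 781, and library totals without shCDCA7 replicate 2 gave 4654 and 2390. No filter on low reads gave 765 higher and 524 lower, and an adjusted p under 0.01 gave 373 and 310. With the replicate number as a block 434 were higher and 380 lower. Deviations of same-numbered libraries from their group means correlated at 0.016, -0.083 and -0.084. With 3 libraries per group and shCDCA7 replicate 2 far from the others, these values cannot decide whether the numbers pair the libraries. The change of CDCA7 ranged from -1.33 to -1.63 over the alternatives, and from -1.35 to -1.44 with 1 library left out, and was called in all of them. Among 215 named genes and 23 alternatives, 4088 values kept direction and side of the threshold, 744 lost and 91 gained the call, and 22 turned sign, all in 3 genes that are not called. The SNAI2 log2 change, 0.02 with 6 libraries, ran from -0.053 to 0.055 with 1 library left out. It went to -0.22 with library totals, -0.00698 with median of ratios over the 6 libraries, -0.17 with totals without mitochondrial genes, -0.058 with voom without shCDCA7 replicate 2, -0.0496 with weights, -0.13 with the GC correction, also with the replicate block, -0.11 with it without shCDCA7 replicate 2 and -0.21 with totals without that library. That of SMAD7, -0.01, ran from -0.16 to 0.26 with 1 library left out. It went to 0.035 with the upper quartile, 0.33 with voom without shCDCA7 replicate 2, 0.24 with weights, 0.15 with the GC correction, also with the block, 0.32 with it without shCDCA7 replicate 2 and 0.12 with totals without that library. That of TWIST1, 0.17, went to -0.067 with library totals and -0.023 with totals without mitochondrial genes. The cause was not tested. The 3 alternatives that combine a choice with leaving out shCDCA7 replicate 2 were added after seeing the data.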
